A study of Mus musculus with 2 samples.

Results

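The AP-1 loci studied here are the 7 windows named for Fos, Fosb, Fosl2, Batf, Jun, Junb and Jund, and the regions of open chromatin called inside them in RAW264 cells, a mouse macrophage-like cell line from which osteoclasts can be grown. The windows are given by position on the mm9 build: chromosome 12 from 86.76 to 86.87 Mb for Fos and from 86.98 to 87.1 Mb for Batf, chromosome 7 from 19.84 to 19.94 Mb for Fosb, chromosome 5 from 32.39 to 32.51 Mb for Fosl2, chromosome 4 from 94.66 to 94.77 Mb for Jun, and chromosome 8 from 87.45 to 87.55 Mb for Junb and from 73.17 to 73.27 Mb for Jund. They are 100 to 120 kb long. Every peak that overlapped a window was taken, whatever its score, which gave 46 of the 29939 peaks of both lists: 22 of the 13492 called without RANKL and 24 of the 16447 called with RANKL.

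DNase-seq, which sequences the short fragments that a light DNase I digest frees from accessible chromatin, was run on 1 library of untreated cells and 1 library of treated cells. The treated cells were given the osteoclast-inducing cytokine RANKL, as a GST fusion, at 234 ng/ml for 24 hours. For both libraries the labels give the range of passage 3 to 7, without the passage of either. With 1 library per condition there is no replicate error, and no difference below could be set against the spread between replicates. Each peak carries a score of the authors' own, which starts at 50 in both lists. It is used here to rank a peak within its list and never between lists. Ranks in lists of unequal length and unknown depth show no change. The words "highest 10%" mean that the rank, counted from the highest score, is 10% of the list's length. Tied peaks share the best rank. Shared peaks are those with at least 1 bp in common with any peak in the opposite list. Intervals beside shares are 95% Wilson intervals and cover counting error only.

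AP-1 is a transcription factor built as a dimer of basic leucine zipper proteins. Jun proteins pair with one another or with Fos proteins, Fos proteins need a Jun partner, and BATF pairs with Jun proteins but lacks their activation domain. In the osteoclast lineage RANKL induces c-Fos, which acts with NFATc1 to switch on osteoclast genes, and mice without c-Fos form no osteoclasts. Fos and Jun are also textbook immediate-early genes, whose transcription rises and falls within a short time of a stimulus.

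The promoter sequences of 4 of the 7 genes, Fos, Fosb, Jun and Junb, are printed here to show exact matches to known control elements next to their start sites. All 7 genes matched the RefSeq promoter table, which is on the GRCm38.p6 build. Peaks on mm9 were not placed on these sequences, since positions were not carried over between builds. Each is the 250 bases before the annotated start, on the gene's own strand (plus for Fos, minus for the others), 5′ to 3′. Capitals mark matches to 7 motifs searched on both strands: TGACTCA (the AP-1 site), TGACGTCA (the cyclic AMP response element), the CArG box, GGGCGG (Sp1), TATAAA (the TATA box), CCAAT (the binding site of NF-Y) and GGAAGTG (PU.1).
Fos promoter: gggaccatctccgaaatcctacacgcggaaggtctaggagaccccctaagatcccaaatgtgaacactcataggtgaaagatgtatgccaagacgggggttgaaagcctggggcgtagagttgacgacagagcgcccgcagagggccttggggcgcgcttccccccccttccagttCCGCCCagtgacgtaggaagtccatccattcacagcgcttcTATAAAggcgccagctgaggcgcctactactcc
Fosb promoter: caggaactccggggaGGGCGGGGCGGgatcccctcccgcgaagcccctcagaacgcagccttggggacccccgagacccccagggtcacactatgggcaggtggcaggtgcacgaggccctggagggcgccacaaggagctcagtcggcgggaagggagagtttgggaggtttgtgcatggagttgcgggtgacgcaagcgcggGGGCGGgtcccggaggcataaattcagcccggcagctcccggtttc
Jun promoter: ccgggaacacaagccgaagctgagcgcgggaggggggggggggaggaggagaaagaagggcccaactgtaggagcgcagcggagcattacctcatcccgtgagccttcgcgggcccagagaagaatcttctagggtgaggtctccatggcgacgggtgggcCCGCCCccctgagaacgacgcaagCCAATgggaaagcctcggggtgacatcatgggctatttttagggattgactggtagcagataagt
Junb promoter: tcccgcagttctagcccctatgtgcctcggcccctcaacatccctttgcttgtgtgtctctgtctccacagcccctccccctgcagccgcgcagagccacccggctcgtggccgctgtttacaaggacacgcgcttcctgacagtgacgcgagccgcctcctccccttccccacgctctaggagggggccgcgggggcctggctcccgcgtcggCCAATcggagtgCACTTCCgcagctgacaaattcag
The Fos stretch held TATAAA from 33 to 28 bases before the start, an element that 12.4% of the 32851 RefSeq promoter stretches of this length also held, and 1 GGGCGG match. Fosb held 3 GGGCGG matches, 2 of which overlap. Jun and Junb each held CCAAT (33.8% of all stretches), and Junb held the one PU.1 match, from 24 to 18 bases before its start (8.55% of all). GGGCGG was found in 5 of the 7 genes, all but Junb and Jund, against 32.7% of all stretches. Exact matches to TGACTCA, TGACGTCA and the CArG box were found in 0 of the 7, against 4.46%, 1.55% and 1.47% of all stretches. Near matches were not searched and stay in lower case, such as tgacatca in the Jun stretch and tgacgta in the Fos stretch. The 0 therefore does not show that such elements are absent. A match is a description of the letters in this window, and 250 bases leave out elements farther from the start.

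Across the 7 windows, peaks were called in about the same numbers with and without RANKL. More than 50% of the window peaks of each list overlapped the other list at the deposited widths. Equal counts do not mean equal covered length. The broader peaks without RANKL covered more of every window, as at Fos (14.8 kb against 1.54 kb). Peak widths differed throughout the lists, with medians of 1738 bp without RANKL and 233 bp with RANKL. The calling settings are unknown, so covered length cannot be read as open length. Without RANKL, 13 of 22 peaks were shared (59.1%, interval 38.7 to 76.7%) and 9 were not. With RANKL, 15 of 24 were shared (62.5%, interval 42.7 to 78.8%) and 9 were not. With each peak replaced by 500 bp around its centre, 11 of 22 (50.0%) and 10 of 24 (41.7%) were shared. No whole-list share is given at that setting, so these shares cannot be set against a background. At the deposited widths, 39.3% of peaks without RANKL and 34.3% of peaks with RANKL lacked a counterpart over the whole lists. The shares here were 40.9% (interval 23.3 to 61.3%) and 37.5% (interval 21.2 to 57.3%). As a set, the AP-1 windows were therefore near the background at these widths in how often a site was found in 1 list only. The windows differed among themselves, from 1 shared site and nothing else at Jun to 5 RANKL-only peaks at Fosb.

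**Figure D1:**
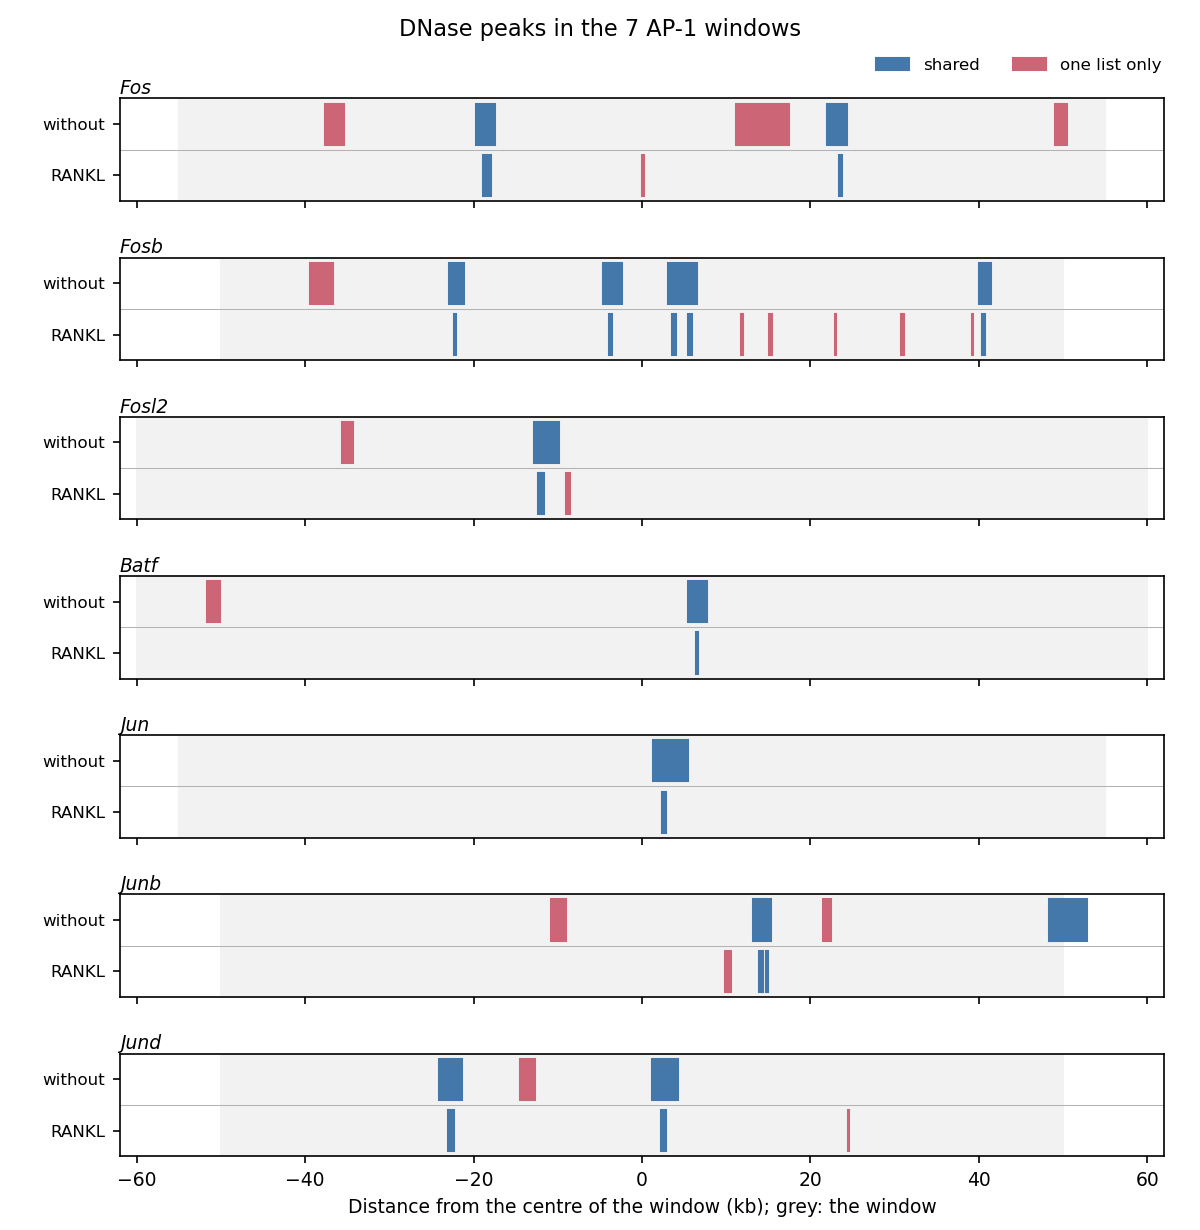
Peaks of each list in the 7 windows, by distance from the window's centre (kb). The upper row of each panel is the list without RANKL and the lower row the list with RANKL, boxes are drawn to scale with a thin outline, blue boxes overlap a peak of the other list and red boxes do not. The right part of the Fosb window holds 5 red RANKL peaks where the other list has none, and the Fos window holds 1 red RANKL peak at its centre and a red peak of 6352 bp to its right.

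The scores placed the AP-1 sites across the full range of their lists. The 22 peaks without RANKL had scores from 51.3 to 300 with a median of 107, against 101 for the whole list. The 24 RANKL peaks had scores from 50.8 to 391 with a median of 76.8, against 73.9. The highest 10% of the list without RANKL held 2 of the 22 (9.09%, interval 2.53 to 27.8%), and that of the RANKL list held 3 of the 24 (12.5%, interval 4.34 to 31.0%). All 5 of these peaks were shared, and they lay in the Fos and Jund windows. At such ranks nearly all peaks of either list were shared. Without RANKL the 2 ranked 431 and 504 both in the list and among its shared peaks. With RANKL the 3 ranked 393, 707 and 841 in the list and 369, 673 and 802 among its shared peaks.

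**Figure D2:**
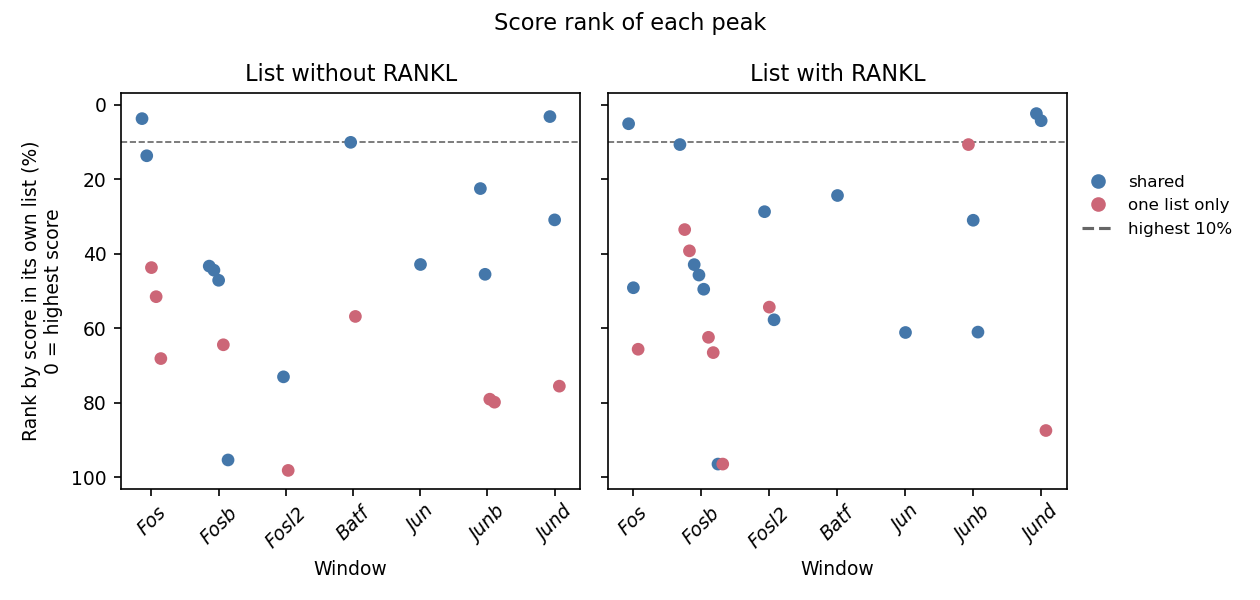
Rank of each of the 46 peaks by score within its own list, in percent, for the list without RANKL (left) and the list with RANKL (right), where 0 is the highest score. Points are single peaks, colour gives shared (blue) or one list only (red), and the dashed line marks the highest 10%. Peaks of Fos and Jund lie above the line in both lists, and the red Junb point of the RANKL list lies just below it at 10.7%.

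Peaks in the AP-1 windows were wide for their lists. The median width without RANKL was 2266 bp, against 1738 bp over the whole list, and with RANKL 341 bp, against 233 bp. The lists differ in width throughout, so a shared site is typically a narrow RANKL peak inside a broad one. In the AP-1 windows 10 broad peaks overlapped exactly 1 RANKL peak that overlapped nothing else (one-to-one sites), and in all 10 the RANKL peak lay wholly inside (100%, interval 72.2 to 100%, against 99.7% over 5931 such sites of the series). The broad peak was wider by a median of 7.17 times, from 2.39 times in the Fos window to 12.03 times in the Fosb window, against a median of 5.76 times over the series.

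**Figure D3:**
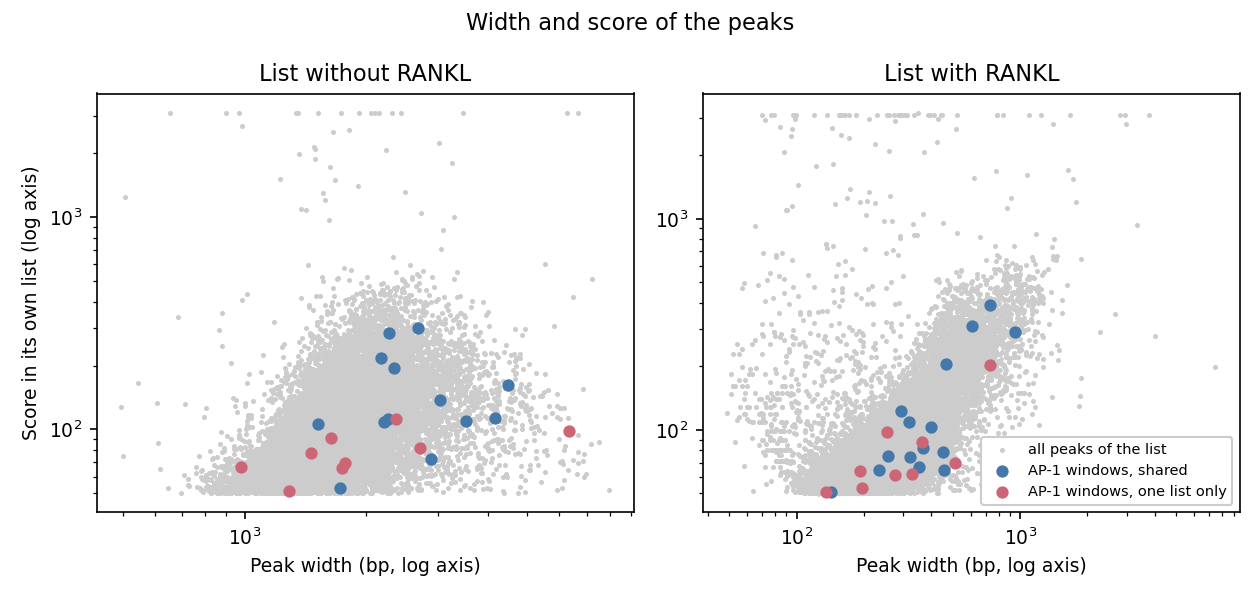
Width (bp, log axis) against score (log axis) for all peaks of each list (grey) and for the peaks of the AP-1 windows that are shared (blue) or in one list only (red). Most AP-1 peaks without RANKL lie to the right of the list's median width of 1738 bp, and the red point at 6352 bp is the widest of them.

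Fos encodes c-Fos, the member of the family without which osteoclasts do not form. Its window held 5 peaks without RANKL and 3 with RANKL, of which 2 in each list were the same sites. The stronger shared site lay at 86795295 to 86797571 on chromosome 12, 18.6 kb before the window's centre. It scored 286 without RANKL (highest 3.74% of that list). The RANKL peak inside it, at 86796066 to 86797016, scored 290 (highest 5.11%). At 951 bp this RANKL peak was the widest of the 24 and was among the widest 1.28% of its list. The other shared site, at 86837014 to 86839353, scored 195 without RANKL (highest 13.7%) and 74.8 with RANKL (highest 49.1%) over 255 bp.

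At the middle of the Fos window the lists parted. A RANKL-only peak of 329 bp lay at 86814969 to 86815297, 0.132 kb from the window's centre, and no peak without RANKL was called within 10.8 kb of it. Its score of 61.6 placed it at 65.6% of the RANKL list, so it is a weak peak of that list, near the lowest score called. Among the 5634 RANKL-only peaks it stood at 39%, above their median score of 58.0. It was the one RANKL peak in a stretch of 28.5 kb with none without RANKL. Of 1521 stretches of 20 to 30 kb between neighbouring peaks without RANKL, 12.8% held 1 or more RANKL peaks.

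The Fos window also held 3 peaks found only without RANKL, of unequal width. The peak at 86826116 to 86832467, 14.3 kb past the centre, was 6352 bp wide. This made it the widest of all 5306 peaks found only without RANKL and the 17th widest of the 13492. Its score was ordinary, 98.9 (highest 51.5%), and the nearest RANKL peak was 5.98 kb away. The peak at 86777295 to 86779661 scored 111 over 2367 bp, 16.4 kb from any RANKL peak. The peak at 86864047 to 86865503 scored 77.3 over 1457 bp, 7.93 kb from any RANKL peak. Of 9097 windows of 100 kb laid end to end on chromosomes 1 to 19 and X that held a peak of either list, 2.73% had 3 or more peaks found only without RANKL, though the Fos window is longer, at 110 kb. Since weak peaks sit close to the calling threshold and read depth is unknown, absence from a list is no evidence that the DNA there was inaccessible.

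Fosb encodes FosB, a close relative of c-Fos that also dimerises with Jun proteins. Its window held 5 peaks without RANKL and 10 with RANKL, the largest number of RANKL peaks of the 7. Of the same 9097 windows of 100 kb, its own length, 0.264% had 10 or more RANKL peaks, and the median had 1. The 5 peaks without RANKL were less unusual, since 3.29% of the same windows had at least as many.

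The additional RANKL peaks at Fosb stood in a row. Between the peaks without RANKL at 19893065 to 19896581 and at 19929981 to 19931501 lay 33.4 kb in which that list had nothing and the RANKL list had 5 peaks. Of 1169 stretches of 30 to 40 kb between neighbouring peaks without RANKL, 2 (0.171%) held 5 or more RANKL peaks, this one included, and the median held 0. This stretch was singled out after its peaks were seen. The peak at 19901764 to 19902039 comes first and scored 61.1. It is followed by a peak of score 87.6 at 19905097 to 19905460 and by one of score 63.6 at 19912899 to 19913091. The fourth, at 19920811 to 19921063, had the highest score of the row, 98.1, which placed it at 33.5% of the RANKL list and at 9.44% of the RANKL-only peaks. The last, at 19929197 to 19929332, scored 50.8. It lay 0.648 kb from a broad peak and at 96.4% of the list, while the others were 5.18 to 16.3 kb from any peak without RANKL.

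Of the 4 shared sites at Fosb, 3 had scores without RANKL between 106 and 112, and the other was among the weakest of its list. The peak at 19885337 to 19887591 had the highest score of that list in the window, 112 (highest 43.3%), and held a RANKL peak of score 74.4. The peak at 19893065 to 19896581 was 3517 bp wide, scored 110 and held 2 RANKL peaks. One of these, at 19893544 to 19894008, scored 204, the highest of the window in the RANKL list (highest 10.7%). The other, at 19895439 to 19895889, scored 78.7. The remaining shared sites scored 106 (highest 47.1%) and 53.1 (at 95.3% of the list) without RANKL. The one peak found only without RANKL, at 19850542 to 19853251, scored 81.7 and lay 14.5 kb from any RANKL peak.

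Fosl2 encodes Fra-2, a Fos protein expressed later than c-Fos in many cells. Its window held 2 peaks without RANKL and 3 with RANKL over 120 kb, and its last 68.5 kb held no peak of either list. Of the 9097 windows of 100 kb, 38.6% had 2 or more peaks without RANKL and 23.3% had 3 or more RANKL peaks. The main site at 32437210 to 32440098 on chromosome 5 was 2889 bp wide and scored 72.3 without RANKL (highest 73%). It held 2 RANKL peaks, at 32437647 to 32437965 with a score of 109 (highest 28.7%) and at 32438036 to 32438388 with a score of 67. Another RANKL peak, at 32440987 to 32441496 with a score of 69.9, began 0.888 kb past the end of the broad peak and counted as RANKL-only for that reason. The peak at 32414344 to 32415628 was found only without RANKL and, at a score of 51.3, ranked at 98.1% of its list.

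Batf encodes a small AP-1 protein best known from T cells and dendritic cells. Its window had a shared site at 87045522 to 87047699 on chromosome 12, 6.61 kb past the centre, which scored 217 without RANKL (highest 10.1%). The RANKL peak inside it, at 87046409 to 87046700, scored 122 (highest 24.3%), and the centres of the 2 peaks were 56 bp apart, the closest of the 10 one-to-one sites. The other peak of the window, at 86988280 to 86989916, was found only without RANKL. It scored 91, and at 56.5 kb it was the farthest of the 18 unshared peaks from the other list.

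Between the Fos and Batf windows lie a further 110 kb of chromosome 12. In the RefSeq gene order on GRCm38.p6, Jdp2 lies between Fos and Batf, within 50 kb of Batf. Its product dimerises with Jun and represses AP-1 targets. Whether Jdp2 lies in this stretch or in a window on mm9 was not determined. This stretch held 3 peaks in each list. The strongest site, at 86872756 to 86875225, began 2.75 kb past the Fos window and scored 211 without RANKL (highest 10.9%). It held 2 RANKL peaks, of scores 276 (highest 5.71%) and 77.0. A weaker site at 86910185 to 86911780 was shared too, with scores of 61.7 and 77.4 in the lists without and with RANKL. The peak at 86938655 to 86940434, with a score of 83.4, was found only without RANKL.

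**Figure D4:**
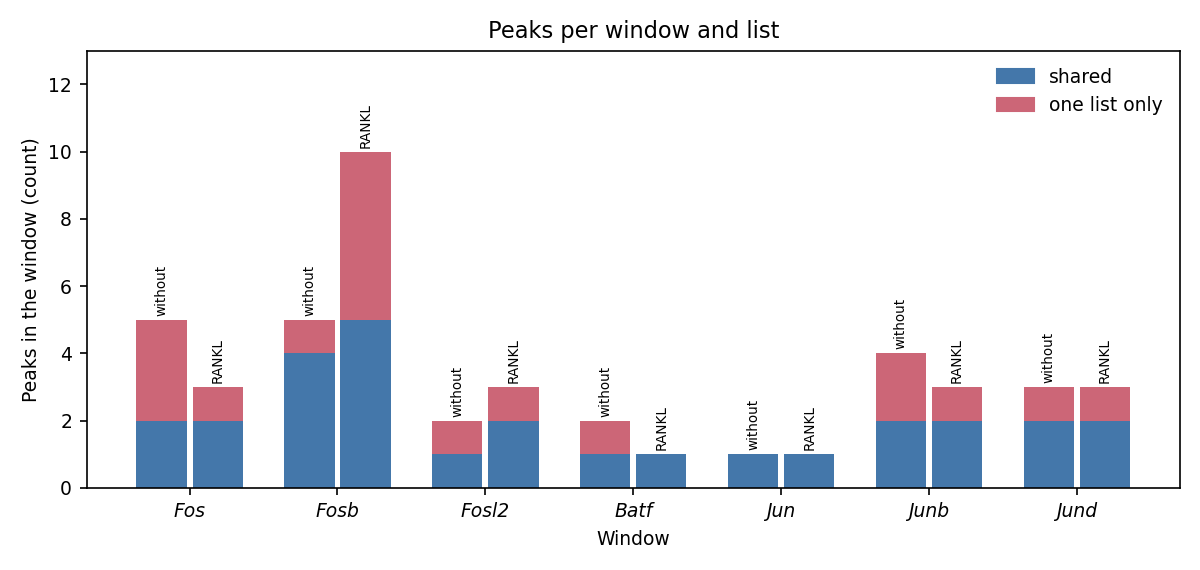
Number of peaks in each window, for the list without RANKL (left bar) and the list with RANKL (right bar). Blue is the number that overlap a peak of the other list and red the number that do not. Fosb has 10 RANKL peaks, 5 of them red, and Jun has 1 blue peak in each list.

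Jun encodes c-Jun, the partner of Fos proteins and the founding member of the Jun group. Its window held 1 peak per list over 110 kb, at the same place. The peak without RANKL lay at 94716317 to 94720483 on chromosome 4, 3.4 kb past the centre of the window, and scored 113 (highest 42.7%). At 4167 bp it was among the widest 1.53% of its list. The RANKL peak at 94717420 to 94717875 was 456 bp wide and scored 64.7 (highest 60.9%). It lay off centre in the broad peak, 1103 bp from its left edge and 2608 bp from its right edge, and the 752.5 bp between the 2 centres was the largest distance of the 10 one-to-one sites, against a median of 179 bp.

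Junb encodes JunB, a weaker activator than c-Jun that can oppose it. Its window carried the strongest RANKL-only peak of the 7 windows, at 87509801 to 87510529 on chromosome 8, with a score of 203. This peak ranked 83rd of the 5634 RANKL-only peaks (highest 1.47%) and 1766th of the 16447 RANKL peaks (highest 10.7%). It was 729 bp wide, against a median of 276 bp for the 9 RANKL-only peaks of the windows, and lay 2.6 kb from the nearest peak without RANKL. That neighbour, at 87513126 to 87515339, scored 108.5 (highest 45.5%) and held 2 RANKL peaks. They lay at 87513944 to 87514344, scoring 104, and at 87514690 to 87514923, scoring 64.6.

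The other Junb peaks were called without RANKL. Those at 87489175 to 87490914 and at 87521442 to 87522419 had scores of 65.6 and 66.3 and no RANKL counterpart, 18.9 and 6.52 kb from the nearest RANKL peak. The last, at 87548371 to 87552836, had the highest score of that list in the window, 162 (highest 22.5%), and ran 2.84 kb past the window's edge. The RANKL peak inside it scored 160 but began 0.437 kb outside the window, so it is counted among the one-to-one sites but not among the 24.

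Jund encodes JunD, the Jun protein present at steady levels in many resting cells. Its window had the highest-scoring peak of the 7 windows in each list, both at the same site. The site at 73195902 to 73198577 on chromosome 8, 22.8 kb before the centre, scored 300 without RANKL (highest 3.19%). The RANKL peak inside it, at 73196994 to 73197725, scored 391 (highest 2.39%). The second shared site, at 73221238 to 73224272 and 2.75 kb past the centre, was 3035 bp wide and scored 138 without RANKL (highest 30.9%). Its RANKL peak at 73222266 to 73222872 scored 312 (highest 4.3%). The unshared peaks were weak in both lists: 69.5 at 73205481 to 73207252 without RANKL and 53.0 at 73244444 to 73244640 with RANKL.

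Set side by side, the Fos group of windows (Fos, Fosb and Fosl2) held 12 peaks without RANKL and 16 with RANKL, and the Jun group (Jun, Junb and Jund) held 8 and 7. Of the RANKL peaks, 7 of 16 (43.8%, interval 23.1 to 66.8%) were RANKL-only in the Fos group and 2 of 7 (28.6%, interval 8.22 to 64.1%) in the Jun group. Without RANKL, 5 of 12 (41.7%, interval 19.3 to 68.0%) and 3 of 8 (37.5%, interval 13.7 to 69.4%) lacked a counterpart. These intervals overlap. They also hold the whole-list shares, 34.3% with RANKL and 39.3% without RANKL. The Fosb window alone supplied 5 of the 7 RANKL-only peaks of the Fos group.

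Other genes lie close to some of the AP-1 genes. None was placed in the mm9 windows, and no peak was assigned to a gene. On GRCm38.p6, 8 other protein-coding genes lie within 50 kb of Junb, 7 within 50 kb of Fosb, 5 of Jund and 2 of Batf, while Fos, Fosl2 and Jun have 0. The neighbours of Fosb are Rtn2 and Ercc1, those of Junb are Prdx2 and Hook2, and those of Jund are Lsm4 and Iqcn. Sites lay just beyond some edges, as without RANKL at 1.58 kb past the Jun window (score 138) and at 4.39 kb past the Fosb window (score 209). The last peaks inside ended 49.5 kb before the Jun edge (score 113), close to the middle of that window, and 8.5 kb before the Fosb edge (score 106).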

How the data were processed

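DNase-seq was measured in 1 untreated and 1 RANKL-treated RAW264 library, and groups follow the treatment label. The authors deposited 1 list of peaks per library, with a position and a score for each peak. The submitters' processing notes name Bowtie2 2.0.0, MACS2 and the mm9 build. What the deposited score measures, the calling threshold, any control library and the read depth were not stated in these sources, so no value has a depth-based error. Fragments of 100 to 500 bp were selected on a gel, per the labels' protocols.

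Peaks overlapping the 7 windows were taken from both lists with Python 3.11.15, pandas 2.3.3, numpy 2.4.6 and scipy 1.17.1, and positions are given 1-based on mm9. The overlap code was tested on simulated data with 13260 planted peaks, from 1 bp of overlap to near misses, and all 13260 were classed correctly. With 1 library per group no test was possible. The sites named were, per window, the highest-scoring peak of each list, every peak of one list only and every broad peak holding 2 or more RANKL peaks. The second shared sites of Fos and Jund and the weaker shared sites of Fosb fall outside this rule and were described after their values were seen. An mm9 genome and annotation were not used here. Start sites, peak sequences and marker genes of macrophages and osteoclasts were therefore not placed, and the cell type was not checked. AP-1 genes beyond the 7 (Fosl1, Atf3, Jdp2, Batf2, Batf3 and the Maf genes) were not placed either. Windows, members and lists were chosen with earlier results of these data known. Counts in windows of 100 kb, in stretches between peaks and for the groups of Fos and Jun windows are descriptions; the last 2 were added after the data were seen. Alternatives covered the overlap rule, window limits, score limits, merging and ranking.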

Additional observations from a re-analysis of the deposited data

How the results depend on the processing

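Among 55 values recomputed under other settings, 46 moved a count by no more than 1.5 times or left a share inside its Wilson interval. These intervals are wide, and many settings reuse most of the same peaks, so this tally is a weak check. Windows widened by 50 kb on both sides held 47 peaks without RANKL and 49 with RANKL. The upper 50% of each list by score held 12 and 14. Widening can only add peaks and a score limit can only remove them. With both lists reduced to that upper 50%, 83.3% of the peaks without RANKL were shared and 2 were not, and 4 RANKL peaks were not shared. Windows of 500 bp around the peak centres left 50.0% of peaks without RANKL shared, and 41.7% of RANKL peaks shared and 14 unshared, since such windows drop RANKL peaks that lie off centre in broad ones. The shares for this setting and for the upper 50% have no whole-list value beside them. Leaving out each of the 7 windows in turn gave shares of 52.9 to 64.7% without RANKL and 60.9 to 71.4% with RANKL, the highest RANKL share without Fosb. Counting a peak within 1 kb as shared left 7 RANKL-only peaks of 9. No paired analysis was possible because each condition has 1 library, for which reason nothing could be recomputed without a replicate either. Depth, which is unknown, limits what can be said of sites missing from a list.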
